A study of Mus musculus with 12 samples.

Results

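The transcripts described here come from 10 genes: Ddx58 (RIG-I), Ifih1 (MDA5), Dhx58 (LGP2), Zbp1, Mavs, Tmem173 (STING), Tbk1, Ikbke, Adar and Samhd1. They encode nucleic acid sensors, their adaptors and the kinases they act through, except that Adar and Samhd1 encode enzymes that edit RNA and break down deoxynucleotides. The 10 genes were taken by gene symbol from a table of 22243 genes, in which they are 11 of 28808 transcripts, and all 10 were among the 8780 genes that averaged 1 TPM or more and were tested (TPM, a length-scaled share of all transcripts of a library). Bone marrow-derived macrophages (BM-Mɸs) were grown with M-CSF and M1-activated by 16 h of IFN-γ (100 U/ml) followed by 6 h of LPS (100 ng/ml). ErbB4myeKO mice carried floxed Erbb4 alleles and LysMCre, a recombinase driven from the lysozyme 2 gene in myeloid cells, and ErbB4FF littermates carried the floxed alleles without Cre. The study's methods name C57Bl/6 for other mice of the study and give a young adult age for purchased ones. They state neither a background nor an age for these 2 genotypes, and no age or sex stands on the labels. Each of 6 litters gave 1 library of each genotype, so that 12 libraries make 6 pairs of separate animals, and all were M1-activated, so that no resting culture gives a baseline. The comparison asks how the loss of ErbB4 in myeloid cells relates to the level of the machinery that detects RNA and DNA in the cytosol of an activated macrophage.

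RIG-I and MDA5 are helicases that bind viral or misplaced double-stranded RNA and engage MAVS on the mitochondrial surface, and LGP2 is a related helicase without the signaling domain. STING, on the endoplasmic reticulum, receives the cyclic dinucleotide that cGAS makes on DNA. Both adaptors activate TBK1 and IKKε (the product of Ikbke), which phosphorylate IRF3 and so induce type I interferon, and interferon in turn raises many of the sensors. ZBP1 binds left-handed nucleic acid and recruits the kinase RIPK3, ADAR edits adenosine to inosine in double-stranded RNA and so lowers what MDA5 sees, and SAMHD1 breaks down deoxynucleotides.

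As most of these genes are interferon targets, the promoters of those matched by symbol in RefSeq (GRCm38.p6) were searched on both strands for GAAA, any 2 bases and GAAA again, which resembles the interferon-stimulated response element (ISRE), and for TTCNNNGAA, which resembles the gamma-activated site (GAS). The window ran from 250 bases before to 50 bases after the start. Promoters were found for 7 genes (9 entries), and not for Dhx58, Zbp1 and Tmem173. The ISRE-like letters were present for Ddx58 and Ifih1 (3.44% of all 32851 promoters), and the GAS-like letters for Samhd1 and Adar (8.30% of all). No match of one motif overlapped a match of the other in these genes. The stretches that hold the matches are shown because Ddx58 and Samhd1 are the members whose values the results turn on, with the other match of each motif beside them. Capitals mark the match, all are written in the direction of the gene, and Ddx58 shows it on the opposite strand.
Ifih1, chr2:62646206-62646235, minus strand: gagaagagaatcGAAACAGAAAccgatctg
Ddx58, chr4:40239804-40239903, minus strand: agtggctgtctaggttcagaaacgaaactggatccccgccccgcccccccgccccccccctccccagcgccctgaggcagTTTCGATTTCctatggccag
Samhd1, chr2:157135266-157135346, minus strand: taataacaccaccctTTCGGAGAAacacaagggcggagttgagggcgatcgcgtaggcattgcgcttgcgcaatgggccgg
Adar, chr3:89730730-89730759, plus strand: gggaagccttTTCAAGGAAacgaaagtgaa
Relative to the first base of the transcript in the table, the match of Ifih1 spanned 12 to 3 bases before it and that of Samhd1 66 to 58 bases before it. The match of Adar ended on the first base, and that of Ddx58 lay 5 to 14 bases after it. With the 250 bases before the RefSeq start alone, only Samhd1 kept its match. A match describes the letters and says nothing of binding in these cells.

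The libraries carry no read depth, as TPM scale every library to the same total, so precision rests on the spread between litters. The deposited principal transcripts made up 59.0% to 64.9% of the total in 10 libraries, but 71.4% and 74.7% in the libraries of litter 5. In litter 5, genes with transcripts under 1 kb had a median log2 of 0.88 above the other litters and those of 4 kb or more a median of -0.55, whereas the medians of the other litters lay between -0.37 and 0.24 in every length class. Means of the log2 ratios are therefore also given without litter 5. Erbb4 was listed at 0.583 ± 0.242 TPM (SD, n = 6) in the libraries labelled ErbB4myeKO and 0.450 ± 0.132 TPM (SD, n = 6) in those labelled ErbB4FF, below the filter, and was higher in the library labelled ErbB4myeKO in 4 of 6 litters (1, 3, 4 and 6), so that it does not separate the labels. Y-linked genes were near 0 in both libraries of litters 5 and 6 and differed by at most 0.0921 on the log2 scale between littermates, so that sex and litter cannot be told apart. The defining macrophage markers were present (summed 8417 to 12521 TPM in ErbB4myeKO and 7179 to 15964 TPM in ErbB4FF libraries), and the summed lymphocyte and erythroid markers did not exceed 3.75 TPM. Lyz2 is part of the macrophage sum and made up 13257 of the 15964 TPM in the ErbB4FF library of litter 5. Adgre1 was 881 ± 121 TPM in ErbB4myeKO against 873 ± 127 TPM in ErbB4FF, and Csf1r 349 ± 80.6 TPM against 345 ± 108 TPM (SD, n = 6). Neutrophil markers summed to between 41.2 and 375 TPM in ErbB4myeKO and between 42.3 and 186 TPM in ErbB4FF libraries, and dendritic cell markers to between 9.43 and 33.6 TPM and between 4.56 and 25.5 TPM, with Siglech and Cd209a, defining dendritic cell markers, and Retnlg, a neutrophil marker, listed at 0 throughout. Of the 375 TPM, S100a8 held 253 and S100a9 101, and of the 33.6 TPM, Xcr1 held 29.0. The neutrophil markers Ltf, Elane, Mpo and Ly6g averaged at most 0.364 TPM in either genotype. The dendritic cell markers Flt3 and Zbtb46 averaged at most 0.208 TPM. At an unadjusted limma p under 0.05 the neutrophil marker Camp, the dendritic cell marker Xcr1 and the proliferation marker Mki67 were higher in ErbB4myeKO. The macrophage marker Fcgr1 was lower. Over all tested genes 3.83% were higher and 4.38% lower at that threshold. Other markers of the same lists went either way. A mean log2 ratio below 0 was found for 2 of 5 neutrophil, 3 of 7 proliferation and 4 of 8 macrophage markers tested. It was found for 0 of 2 dendritic cell markers. Lyz2, whose locus carries the Cre, was 5305 ± 1985 TPM against 8277 ± 3445 TPM (SD, n = 6). The Lyz2 value of litter 6 ran against that of the other litters: its log2 ratio was 1.43 there (7997 TPM in the library labelled ErbB4myeKO and 2964 TPM in that labelled ErbB4FF) and -1.20 to -0.81 elsewhere. ErbB4myeKO and ErbB4FF therefore stand below for the genotype on the label, and any direction that includes litter 6 rests on its labels. The part of these cells in the values below was not tested, and in bulk RNA fewer cells of a type and less RNA per cell cannot be told apart.

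Within litters, 9 of the 10 genes had a mean log2 ratio of ErbB4myeKO to ErbB4FF below 0, where 50.2% of all tested genes had one. No gene of the table passed a Benjamini-Hochberg adjusted p of 0.05 in limma (percent called 0, smallest adjusted p 0.603), so none of the differences below is past that threshold. At an unadjusted p under 0.05, 2 of the 10 were lower (Samhd1 and Ddx58) against 4.38% of all tested genes, and 0 of the 10 were higher against 3.83%. By the labels, the same 2 genes were lower in ErbB4myeKO in 6 of 6 litters, against 2.31% of all tested genes. Genes lower in 6 of 6 litters are lower in any 5 of them, so leaving out litter 6 cannot test this count. In limma without litter 6, whose Lyz2 values run against those of the other litters, 1 of the 10 was lower at an unadjusted p under 0.05 (3.18% of all tested genes). This was Samhd1 (unadjusted limma p 0.0291), and Ddx58 was at 0.0737. The median log2 fold change of the 10 was -0.17 and that of all tested genes lay at -0.00068. The TPM of the genotypes overlapped for every one of the 10 genes, and litters differed far more than littermates. Litter took a median of 85.6% of the variance of these genes and genotype 5.22% (78.1% and 2.49% over all tested genes). Without litter as a block, 0 of the 10 had an unadjusted p under 0.05.

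**Figure D1:**
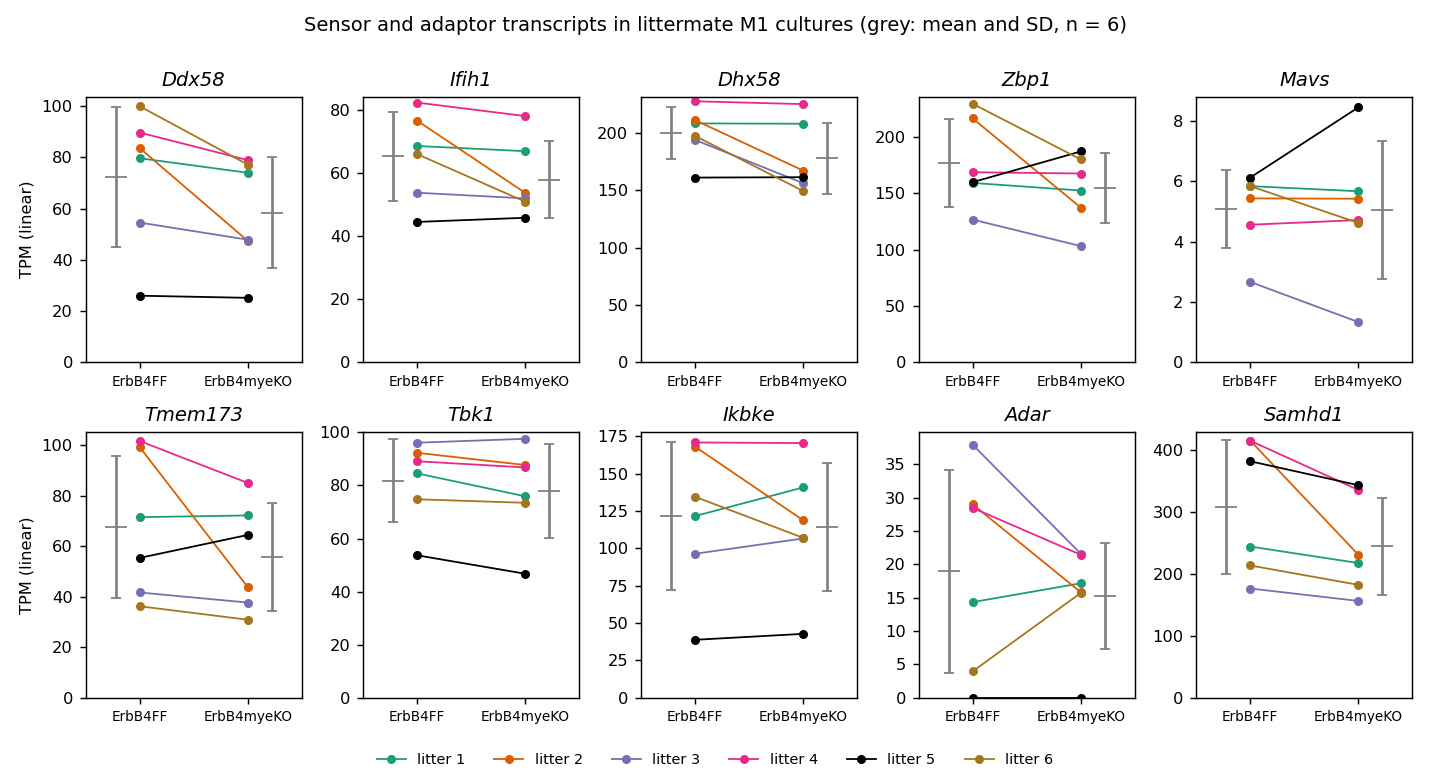
TPM (linear axis from 0) of the 10 genes in each library, with littermates joined by a line and the mean and SD of 6 libraries in grey. Samhd1 and Ddx58 slope down from ErbB4FF to ErbB4myeKO in litters 1 to 5 and, by its labels, in litter 6, while Adar is at 0 in both libraries of litter 5.

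Ddx58 (ENSMUSG00000040296, GRCm38 chr4:40203773-40239828, minus strand), the sensor of short RNA with a 5′ triphosphate, was listed at 74.0, 47.4, 47.9, 78.9, 25.2 and 77.2 TPM in the ErbB4myeKO libraries of litters 1 to 6. The ErbB4FF littermates held 79.6, 83.6, 54.5, 89.6, 26.0 and 99.9 TPM. Each ErbB4myeKO library was thus below its littermate, by the most in litter 2 and by the least in litter 5, where both were low. The mean of its log2 ratios was -0.28 ± 0.28 (SD, n = 6 litters; exact permutation p = 0.0312, the smallest that 64 swaps of genotype within litters can give). In limma this was a fold of 0.821 with a 95% interval of the log2 fold change from -0.53 to -0.04 (SE 0.11, unadjusted p 0.0296, adjusted p = 0.603). The mean was -0.33 without litter 5, -0.18 without litter 2 and -0.27 without litter 6 (unadjusted limma p 0.0737 in the last).

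Ifih1 (ENSMUSG00000026896, chr2:62595798-62646255, minus strand), the sensor of long double-stranded RNA, ranged from 45.9 to 78.2 TPM (median 52.9) in ErbB4myeKO and from 44.6 to 82.4 TPM (median 67.4) in ErbB4FF libraries. Its log2 ratio was -0.51 in litter 2 and -0.37 in litter 6 and between -0.08 and 0.04 in the other litters, with a mean of -0.17 ± 0.22 (SD, n = 6; lower in 5 of 6 litters, exact permutation p = 0.0938). The mean of Ifih1 was -0.21 without litter 5 and -0.10 without litter 2. Dhx58 (ENSMUSG00000017830, chr11:100694884-100704271, minus strand), which tunes both sensors, ranged from 149 to 225 TPM (median 164) and from 161 to 228 TPM (median 203). The pairs of Dhx58 fell into 3 with ratios of -0.34, -0.31 and -0.40 (litters 2, 3 and 6) and 3 at -0.00, -0.02 and 0.00. Its mean was -0.18 ± 0.19 (SD, n = 6; lower in 5 of 6 litters, exact permutation p = 0.0938), and the 95% interval in limma ran from -0.36 to 0.01 (adjusted p = 0.603). The mean of Dhx58 was -0.21 without litter 5 (unadjusted limma p 0.0422) and -0.13 without litter 6.

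Dhx58 was the most abundant of the 3 helicase transcripts in each library. On the TPM scale, which is per transcript length, Dhx58 stood at 2.75 to 3.61 times Ifih1 in the 12 libraries, and at 1.94 to 3.55 times Ddx58 in the 10 libraries outside litter 5. In litter 5 it was 6.41 times Ddx58 in the ErbB4myeKO and 6.19 times in the ErbB4FF library. The transcript of Ddx58 in the table has 3874 bases and that of Dhx58 2412 bases. Ifih1, with 5470 bases the longest of the 11 transcripts, differed by -0.50 on the log2 scale from the other litters in litter 5, and Ddx58 by -1.46. The part of transcript length in these levels was not tested gene by gene.

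Zbp1 (ENSMUSG00000027514, chr2:173206612-173218923, minus strand), the sensor that can start necroptosis, ranged from 103 to 187 TPM (median 160) in ErbB4myeKO and from 127 to 229 TPM (median 164) in ErbB4FF libraries. Its log2 ratio was below 0 in 5 of 6 litters and 0.23 in litter 5, with a mean of -0.19 ± 0.31 (SD, n = 6; exact permutation p = 0.156). The mean of Zbp1 was -0.27 without litter 5 and -0.10 without litter 2.

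The adaptor Tmem173 (ENSMUSG00000024349) was listed at 72.2, 43.8, 37.7, 85.0, 64.4 and 30.9 TPM in ErbB4myeKO libraries of litters 1 to 6. The ErbB4FF range was 36.2 to 102 TPM with a median of 63.4 TPM. Litter 2 stood apart with a log2 ratio of -1.17, and the other 5 lay between -0.26 and 0.22. The mean over 6 litters was -0.26 ± 0.48 (SD, n = 6; exact permutation p = 0.219), and it was -0.08 without litter 2 and -0.36 without litter 5.

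Mavs (ENSMUSG00000037523, chr2:131234063-131248025, plus strand), the adaptor of RIG-I and MDA5, was the least abundant of the 10, with 1.34 to 8.44 TPM (median 5.06) in ErbB4myeKO and 2.66 to 6.12 TPM (median 5.63) in ErbB4FF libraries. It stood at percentile 34.6 of the tested genes by mean TPM, while the other 9 lay at 63.9 or above. Its mean log2 ratio was -0.11 ± 0.41 (SD, n = 6; lower in 4 of 6 litters, exact permutation p = 0.656), with a 95% interval in limma from -0.49 to 0.27. The mean of Mavs was -0.22 without litter 5 and 0.03 without litter 3.

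The sum hides a difference between the 2 Mavs transcripts of the table, both marked as principal. ENSMUST00000110199 was listed at 0, 1.44, 0, 1.70, 1.60 and 1.43 TPM in the ErbB4myeKO libraries and at 2.57, 4.46, 0, 4.56, 4.31 and 2.41 TPM in their littermates. It was lower in 5 of 6 litters and at 0 in both libraries of litter 3 (mean log2 ratio -1.16 ± 0.88, SD, n = 6; exact permutation p = 0.0625; limma over 10085 transcripts, adjusted p = 0.685). ENSMUST00000041362 went the other way in 4 of 6 litters, with a mean log2 ratio of 0.99 ± 1.31 (SD, n = 6; exact permutation p = 0.188). The share of ENSMUST00000110199 in the TPM of Mavs was 18.8% ± 15.6 (SD, n = 6) in ErbB4myeKO and 56.3% ± 35.6 (SD, n = 6) in ErbB4FF libraries. Leaving out 1 litter at a time gave differences between -45.1 and -32.3 percentage points. The share was compared because the transcripts were seen to differ. The sequences are close: 91.7% of the 31-mers of the first (words of 31 bases, the default by which kallisto matches reads) occur in the second, and 97.9% of those of the second in the first, so that few words separate them. With the other transcripts of Mavs included, 100% of the words of ENSMUST00000041362 occur elsewhere in the gene and none is its own.

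**Figure D2:**
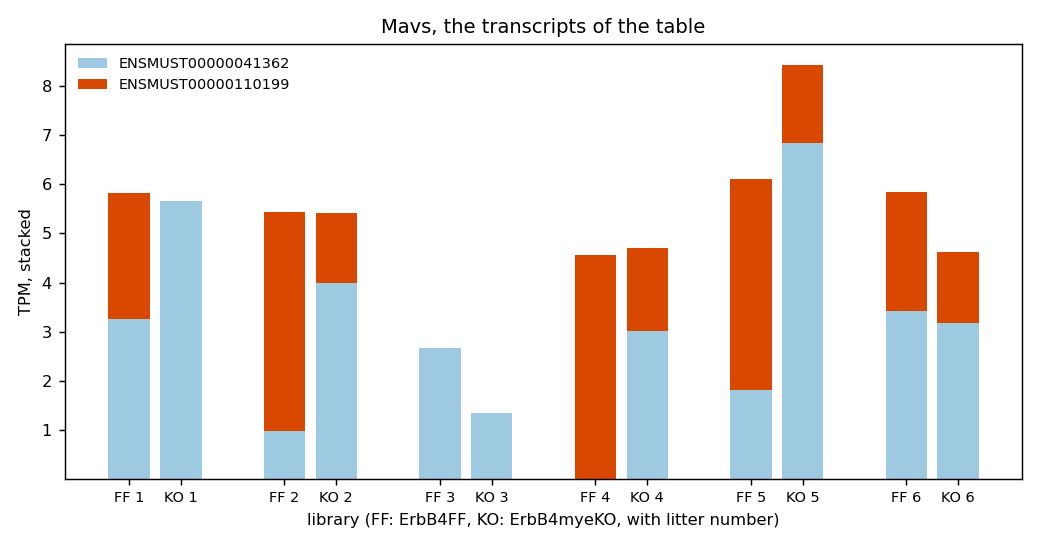
Stacked TPM of both Mavs transcripts in the 12 libraries, with littermates side by side. The orange part (ENSMUST00000110199) is smaller in the ErbB4myeKO library of 5 litters and absent from both libraries of litter 3, while the stacked bars of littermates are of nearly the same height in litters 1, 2 and 4.

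Tbk1 (ENSMUSG00000020115, chr10:121546455-121586787, minus strand), the kinase shared by both adaptors, ranged from 46.7 to 97.6 TPM (median 81.3) in ErbB4myeKO and from 53.7 to 96.1 TPM (median 86.8) in ErbB4FF libraries. No other member was as close between littermates: its log2 ratios lay between -0.20 and 0.02 and 97.0% of its variance went with litter. The mean was -0.08 ± 0.08 (SD, n = 6; exact permutation p = 0.0625), and the 95% interval in limma ran from -0.21 to 0.05 (mean -0.05 without litter 5). Ikbke (ENSMUSG00000042349, chr1:131254343-131279606, minus strand), the inducible partner of TBK1, ranged from 42.8 to 170 TPM (median 113) and from 38.8 to 171 TPM (median 128). It was lower in 3 litters and higher in 3, with a mean log2 ratio of -0.06 ± 0.29 (SD, n = 6; exact permutation p = 0.656). The mean of Ikbke was -0.10 without litter 5 and 0.03 without litter 2. Ikbke exceeded Tbk1 in the 10 libraries outside litter 5 (1.00 to 1.96 times) and was below it in both libraries of litter 5 (0.916 and 0.723 times).

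Samhd1 (ENSMUSG00000027639, chr2:157097533-157135265, minus strand), a hydrolase of deoxynucleotides that restricts reverse-transcribing viruses, was listed at 218, 231, 156, 336, 343 and 182 TPM in the ErbB4myeKO libraries of litters 1 to 6. The ErbB4FF littermates held 244, 415, 177, 415, 382 and 214 TPM. Every ErbB4myeKO library was below its littermate, with log2 ratios of -0.15 to -0.31 in 5 litters and -0.85 in litter 2. The mean was -0.31 ± 0.27 (SD, n = 6; exact permutation p = 0.0312, again the smallest possible), which in limma was a fold of 0.805 with a 95% interval of the log2 fold change from -0.54 to -0.08 (SE 0.10, unadjusted p 0.0150, adjusted p = 0.603). The mean was -0.34 without litter 5, -0.21 without litter 2 and -0.33 without litter 6.

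Adar (ENSMUSG00000027951, chr3:89715022-89753446, plus strand) was listed at 17.2, 15.8, 21.6, 21.5, 0 and 15.7 TPM in the ErbB4myeKO libraries and at 14.3, 29.0, 38.0, 28.5, 0 and 3.96 TPM in their littermates. It was lower in 3 litters, higher in 2 and at 0 in both libraries of litter 5, with a mean log2 ratio of 0.01 ± 1.01 (SD, n = 6; exact permutation p = 1). The 95% interval in limma, -0.79 to 0.81, was the widest of the 10, and the mean was 0.01 without litter 5 and -0.36 without litter 6. The table holds 1 of the 5 coding transcripts that GENCODE M21 lists for Adar, and 100% of its 31-mers also occur in another transcript of the gene. No 31-mer sets this transcript apart from the others of the gene, and the 0 in litter 5 is an estimate for this transcript rather than for the gene. The Mavs transcript ENSMUST00000041362 has no 31-mer of its own either, and Ddx58 and Tbk1 have few, as 99.9% and 99.5% of theirs occur in another transcript of the gene. The share was lowest for Samhd1 (50.4%).

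**Figure D3:**
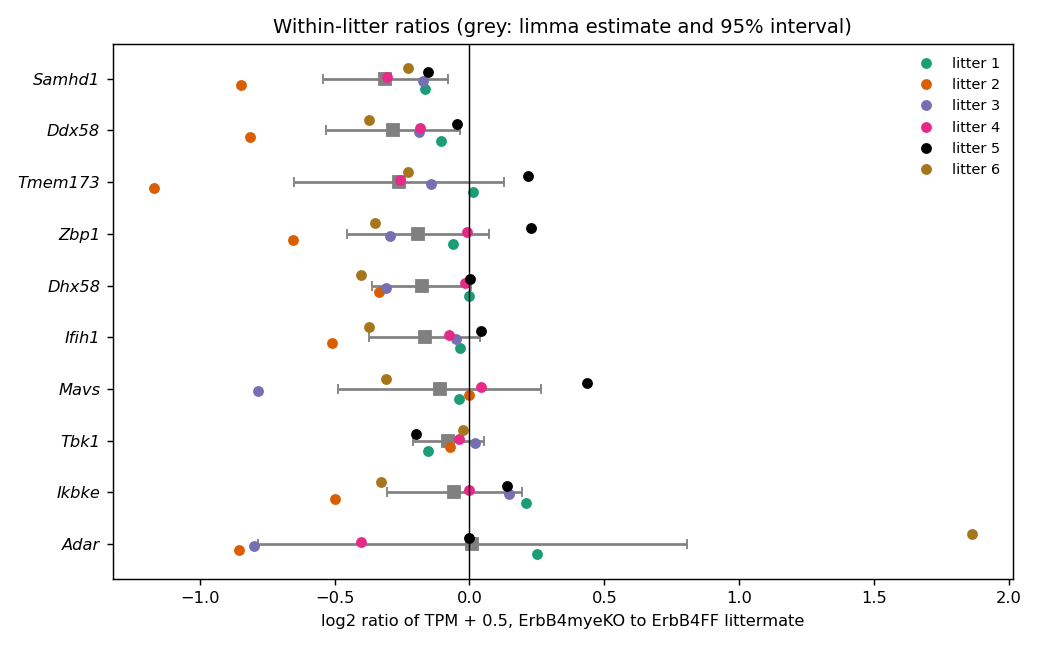
Log2 ratio of TPM + 0.5 within each litter (points, coloured by litter) with the limma estimate and its 95% interval (grey), ordered by the estimate. The interval lies below 0 for Samhd1 and Ddx58, and the points of litter 2 are the lowest for 7 of the 10 genes.

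The 10 genes did not differ evenly across litters. In litter 2 each of the 10 was lower in the ErbB4myeKO library (median log2 ratio -0.58). The littermates of litter 2 were also the least alike over all tested genes (r = 0.0955 after gene means were taken away). In litter 6 it was 9 of 10 by its labels (median -0.32), which the Lyz2 values put in doubt, and in litter 3 it was 8 of 10 (median -0.18). In litters 1 and 4 the numbers were 7 and 9, with medians of only -0.04 and -0.06. In litter 5 it was 3 of 10 (median 0.02). Over all tested genes the share below 0 was between 46.9% and 53.6% in every litter. With litter 5 left out, Ifih1, Dhx58 and Zbp1 joined Ddx58 and Samhd1 in being lower in all 5 remaining litters, 5 of 10 against 5.68% of all tested genes. Leaving out litter 3 added Tbk1 alone (3 of 10 against 5.69%), and leaving out litter 1, 2, 4 or 6 added none.

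Levels between litters were a larger contrast than genotype. In litter 5, against the other litters and over both genotypes, Adar was listed at 0, and Ikbke stood at -1.67, Ddx58 at -1.46 and Tbk1 at -0.76 on the log2 scale. Samhd1 (0.57) and Mavs (0.67) were above the other litters there, and Zbp1 (0.11) and Tmem173 (0.07) close to them. In this measure Ikbke lay at percentile 6.03 of the tested genes and Ddx58 at 7.86. Ikbke and Ddx58 were thus low but not at the edge of the table.

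**Figure D4:**
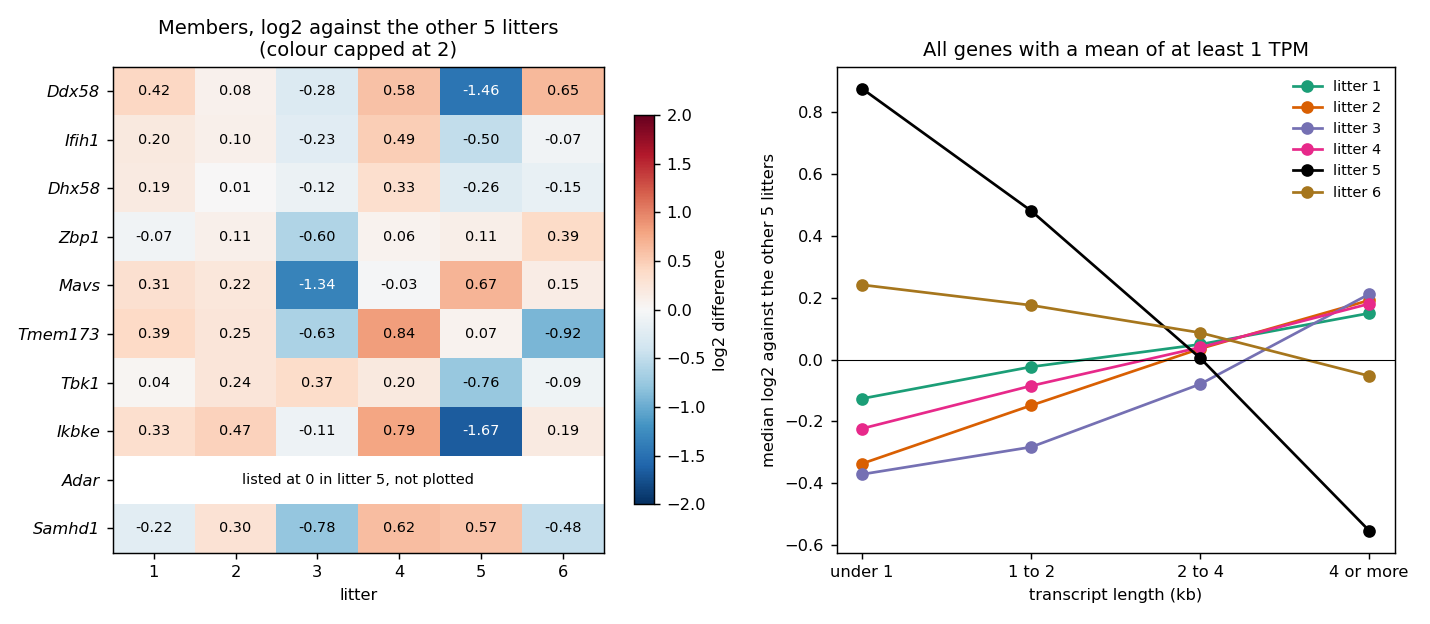
Left, mean log2(TPM + 0.5) of both littermates less that of the other 5 litters, for each gene and litter except Adar, which is listed at 0 in litter 5. Right, the median of the same difference over all tested genes by transcript length, where litter 5 runs from 0.88 under 1 kb to -0.55 at 4 kb or more.

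By mean TPM in ErbB4FF libraries the order was Samhd1 (308 ± 108), Dhx58 (200 ± 22.4), Zbp1 (177 ± 38.8), Ikbke (122 ± 49.5), Tbk1 (81.7 ± 15.6), Ddx58 (72.2 ± 27.2), Tmem173 (67.6 ± 28.2), Ifih1 (65.4 ± 14.1), Adar (19.0 ± 15.2) and Mavs (5.07 ± 1.30) (SD, n = 6). Ddx58, Tmem173 and Ifih1 could not be ordered, as each neighbour was the higher in only 7 of 12 libraries. The gap between Ifih1 and Adar held in 12 of 12 libraries and that between Samhd1 and Dhx58 in 11 of 12. Dhx58 and Zbp1 were within their spread (8 of 12).

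Across the 12 libraries, which share litters, the pairs with the highest correlation of log2 levels were Adar and Tbk1 (Pearson r = 0.95), Ifih1 and Dhx58 (0.92) and Ddx58 and Ikbke (0.92). Without litter 5 (10 libraries, a choice made after seeing the data) Adar and Tbk1 were at 0.70 and Ddx58 and Ikbke at 0.64, while Ifih1 and Dhx58 were at 0.91. Samhd1 and Ikbke went from -0.09 with litter 5 to 0.91 without it, and Ifih1 and Ikbke, at 0.93, were then the highest. Mavs ran against Tbk1 with and without litter 5 (-0.65 and -0.63). The 5 genes whose log2 level was most like the mean standardized level of the 10 were Ifi208 (r = 0.980), C4b (0.978), Taok3 (0.954), Tlr9 (0.947) and P2ry6 (0.941) over 12 libraries, and these 5 were between 0.935 and 0.972 without litter 5. Ifi208, of the interferon-inducible p200 family, was 46.95 ± 22.9 TPM (SD, n = 6) in ErbB4myeKO and 72.9 ± 39.2 TPM (SD, n = 6) in ErbB4FF libraries and lower in 6 of 6 litters (log2 fold change -0.57, limma adjusted p = 0.603). With the mean of each litter taken away, the closest 5 included Phf11a, Themis2, Stat2 and Plin2, at an r of 0.990 to 0.994 for those 4. On that scale littermates take opposite values, so that r rests on 6 separate values and on the litters with the largest differences. None of the first 5 was among them, although these kept an r of 0.929 to 0.980 on that scale.

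Around these 10 genes, 64 of 73 further genes of the same pathways were tested, and 49 had a mean log2 ratio below 0 (median -0.15), where 50.2% of all tested genes had one. At an unadjusted p under 0.05 in limma, 9 were lower (4.38% of all tested genes) and 0 higher (3.83%), and 0 passed an adjusted p of 0.05. The lists were drawn up with earlier results of these data known, so their counts are a description. With litter 6 left out, 47 of the 64 had a mean below 0 and 4 were lower (3.18% of all tested genes), Casp6, Mx1, Optn and Ripk3, and with litter 5 left out 15 were lower (5.54%). Among the regulators of RIG-I-like receptors (11 tested) 6 had a mean below 0 and 1 was lower, Trim25, the ubiquitin ligase that acts on RIG-I, at 78.7 ± 12.2 TPM against 89.3 ± 12.3 TPM (SD, n = 6). Its mean log2 ratio was -0.18 ± 0.15 (SD, n = 6). In the list of TRAF proteins, kinase adaptors and IRFs around MAVS and TBK1 (13 tested), 9 had a mean below 0 and 2 were lower, Irf7 and Optn. Optn encodes optineurin, which binds TBK1, and was 16.8 ± 3.63 TPM against 20.5 ± 4.54 TPM (SD, n = 6; mean log2 ratio -0.28 ± 0.20).

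Of the genes around cGAS and STING (11 tested) 9 had a mean below 0 and 0 had an unadjusted p under 0.05 in limma. Of the ZBP1 partners (5 tested) 4 had a mean below 0, and the caspase gene Casp6 was lower, at 7.89 ± 3.12 TPM against 10.5 ± 2.97 TPM (SD, n = 6; mean log2 ratio -0.49 ± 0.52, and -0.30 without litter 3). Of the other nucleic acid sensors, Toll-like receptors included (9 tested), 8 had a mean below 0 and 0 an unadjusted p under 0.05 in limma. Genes that type I interferon induces (15 tested, Ifnb1 itself among them) had the lowest median, -0.24, with 13 below 0 and 5 lower: Cxcl10, Oas1a, Isg15, Rsad2 and Stat2. Cxcl10 was at 2221 ± 647 TPM against 2484 ± 621 TPM (SD, n = 6; mean log2 ratio -0.18 ± 0.12, and -0.13 without litter 6). Trim25, Optn, Casp6 and Cxcl10 each had an adjusted p of 0.603 in limma. These 4 are described singly because they had 1 direction in all litters by the labels, so that this direction is part of their choice. Ifnb1, named after its values were seen, was 6.05 ± 2.01 TPM against 6.00 ± 4.70 TPM (SD, n = 6) and lower in 3 of 6 litters. Its mean log2 ratio was 0.50 ± 1.25 (SD, n = 6; exact permutation p = 0.469), with 6.19 against 0.879 TPM in litter 2 and 2.93 against 0.421 TPM in litter 4.

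**Figure D5:**
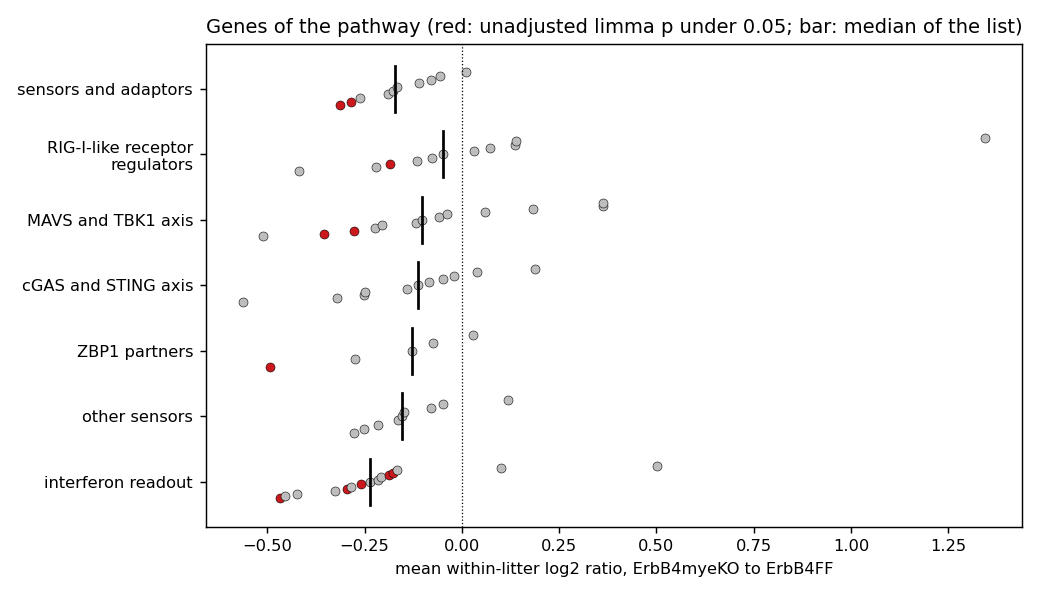
Mean within-litter log2 ratio of each tested gene by list, with an unadjusted limma p under 0.05 in red and the median of the list as a bar. All 11 red points (Ddx58 and Samhd1 of the 10 genes in the row of sensors and adaptors, and 9 of the 64 other genes) lie below 0, and the interferon readout has the lowest median.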

How the data were processed

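Libraries came from M1-activated BM-Mɸs of 6 ErbB4myeKO and 6 ErbB4FF mice, paired by the litter number on the labels. The authors pseudoaligned single-end reads of 75 bp with kallisto and deposited TPM of APPRIS principal transcripts. CASAVA, sleuth and mm10 are also in the submitters' processing notes, and versions are not given in the sources used here. Columns of sleuth's own comparison (p- and q-values, test statistics, log2 ratios and means) were not used. Of 29213 lines, 405 repeat a transcript and were counted once. The rest were summed per gene, with positions from GENCODE M21 (GRCm38).

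For genes averaging 1 TPM or more, log2(TPM + 0.5) entered limma 3.58.1 in R 4.3.3 (eBayes with trend, Benjamini-Hochberg over all 8780 genes), with litter as a block, and tested on simulated data. A fold change on this scale understates that of low genes. Mean within-litter ratios were tested by two-sided exact permutation over 64 swaps. Littermates correlated (r = 0.0955 to 0.762 after gene means were taken away), and the labels give a shared litter. Python 3.11.15 was used for the rest.

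The 10 genes and the pathway lists were chosen with earlier results of these data known. Named pathway genes have an unadjusted p under 0.05 and 1 direction in 6 litters (at most 5 in each direction). The 5 genes most like the members, Erbb4 and Lyz2 were also named, and other names in a count of 5 or fewer, the Mavs share and the length classes were chosen after values were seen. Alternatives were no block, pseudocounts of 0.1 and 1, no filter or 5 TPM, median-ratio rescaling, no trend, the highest transcript of each gene alone, a Y-linked covariate, each litter left out, and for the motifs a shorter window. A gene that the rule for similar genes selects is not reported here.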

Additional observations from a re-analysis of the deposited data

Results flagged for a closer look

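In 30 groups of 6 values (TPM per genotype and log2 ratios, for each of the 10 genes), 3 had a lowest value whose gap to the next, over the whole range, exceeded Dixon's 95% critical value. Chance flags about 5% of such groups. The log2 ratio of Tmem173 in litter 2 was -1.17 against -0.26 for the next litter. The log2 ratio of Samhd1 in litter 2 was -0.85 against -0.31. Adar in the ErbB4myeKO library of litter 5 was at 0 TPM against 15.7 TPM in the next library, and its ErbB4FF littermate was at 0 TPM too.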

How the results depend on the processing

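Ddx58 and Samhd1 kept a log2 fold change below 0 under all 15 alternatives, among them a Y-linked covariate that hardly varies within litters and so tests nothing of sex (-0.33 to -0.18 and -0.34 to -0.21), with an unadjusted p under 0.05 in 13 and 14 of them. Without the block, genes with an unadjusted p under 0.05 numbered 75 in place of 721, with 0 in place of 2 of the 10 members and 0 in place of 9 pathway genes lower. With 1 litter left out, the 721 became 410 (without litter 2) to 860, the 2 members 1 (without litter 6) to 4 (without litter 5), the 2 members lower in every litter 2 to 5, the 9 pathway genes 4 (without litter 2 or 6) to 15 (without litter 5), an alternative added after seeing the data, and the genes past an adjusted p of 0.05 0 to 1 (1 without litter 3). The direction turned for Mavs with the highest transcript alone (0.99) and without litter 3 (0.025, lowest -0.22), for Ikbke without litter 2 (0.033, lowest -0.11), and for Adar with the Y-linked covariate and replicate block (-0.25), a pseudocount of 1 (-0.0025), or without litter 1 or 6 (range -0.36 to 0.18). Taking away litter means left 0 of the 5 most similar genes in the closest 5, though their r stayed between 0.929 and 0.980, and the shorter promoter window left 0 ISRE-like and 1 GAS-like match. The cause of these changes was not tested, except that each smaller set of litters has fewer samples. TPM hold no depth, so low transcripts such as those of Mavs carry an error that is not known beyond the spread between litters.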
